A study of Caenorhabditis elegans with 2 samples.

Results

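The regions described here are 556 peaks of tagged GEI-8 whose summits lie inside exons of protein-coding genes, away from promoters. They were chosen from the 3000 strongest of 30000 peaks in the list called on both replicates pooled, ranked by the peak signal that the authors' caller gave. Summits less than 1000 bp from tRNA and snoRNA genes were set aside, as were those from 1000 bp upstream to 200 bp downstream of the annotated 5′ end of a protein-coding gene. Of the remaining peaks, those with the summit inside an exon of a protein-coding transcript (Ensembl annotation of WBcel235) were kept and are called exonic peaks below, whether the exon sequence is coding, 5′ UTR or 3′ UTR. Since signal and position chose them, both are given as descriptions without a test.

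The study mapped GEI-8 by chromatin immunoprecipitation and sequencing (ChIP-seq) in Caenorhabditis elegans. Both libraries came from strain OP589, which carries the unc-119(tm4063) allele and the integrated transgene wgIs589, in which gei-8 is fused to TY1, EGFP and 3xFLAG tags and joined to an unc-119(+) rescue gene. Animals of both sexes were pooled as whole L4 larvae, the last larval stage, with a label of 48 hours and synchronisation as starved L1 larvae. Their chromatin was sonicated and precipitated through the GFP tag. There was 1 group of 2 biological replicates with 1 shared control alignment, and no untagged strain, mutant or other stage was analysed here. The transgene adds copies of gei-8 and unc-119 to the genome of every animal, and whole animals give an average over all tissues. The files hold peaks and no read counts, so the depth of the libraries is unknown.

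GEI-8 is the worm relative of NCoR and SMRT, vertebrate corepressors that bind nuclear receptors and other transcription factors and bring histone deacetylases to chromatin. Such proteins do not read DNA themselves, and their sites are usually described at promoters and enhancers. An exon can also hold regulatory DNA: many worm genes have several promoters, so that an exon of a long transcript can be the start of a shorter one, and the worm genome is compact enough that the end of one gene is often close to the start of the next.

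For orientation, the coding-strand sequence of 30 bases is shown for 7 of the exonic peaks with the highest signal whose summit base is coding sequence and in no annotated UTR. The summit base is in capitals.
dos-3, III:835995-836024, minus strand: ccgaatccagatgaCccacataatcgcgat
pks-1, X:5429523-5429552, plus strand: cactctaaccttatCcaagagactcatctc
dhc-4, III:10989874-10989903, plus strand: aatgaccgtcgtttGtgtgactaccgcctg
ccd-5, X:2569279-2569308, minus strand: ttatccattgggcaAcgcaattttcgctct
C40H1.7, III:9326714-9326743, plus strand: gcgagcaagcagatCaaccgttttgcaggt
picd-1, V:117480-117509, plus strand: ggttcagcgaccacAagctcatcgtctatc
elo-5, IV:5375132-5375161, minus strand: ccatcacgcattgaCcggttactatgctct
The 201 bp around these summits ranged from 36.3% GC at elo-5, a fatty acid elongase gene, to 61.2% GC at picd-1.

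Exonic peaks made up 18.5% of the 3000 ranked peaks (95% exact Clopper-Pearson interval 17.2 to 19.97), while 22.6% of the nuclear genome met the same positional rule (22681702 bp, called eligible exon bases below). The ratio of these shares was 0.819. The share was 11.4% among the 1500 strongest peaks and 12.2% among those strong in both replicates. Introns away from promoters held 621 peaks, which is 20.7% of the peaks on 30.01% of the bases. Distal intergenic DNA held 599 peaks, which is 19.97% on 24.6% of the bases. Regions near tRNA or snoRNA genes held 446 peaks, 14.9% on 1.72% of the bases.

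The exonic peaks were mostly found low in the ranking. Only 21 of the 500 highest peaks were exonic (4.2%), followed by 58 of the peaks ranked 501 to 1000 (11.6%) and 92 of those ranked 1001 to 1500 (18.4%). The share was 26.2%, 27.6% and 23.2% in the following bands of 500. Among the 100 highest peaks 1 was exonic, in dos-3, beside 22 intronic and 18 distal intergenic peaks. The median signal of exonic peaks was 101, with a range of 87.3 to 357, and the medians were 106 for intronic, 112.02 for distal intergenic and 111 for promoter peaks. Of the exonic peaks 87 (15.6%) were on the authors' list of reproducible peaks, which are the highest pooled peaks and make up 35.1% of the 3000. A deposited q-value at or under 0.05 was recorded for 318 exonic peaks (57.2%) and for 2085 of all 3000 (69.5%).

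**Figure D1:**
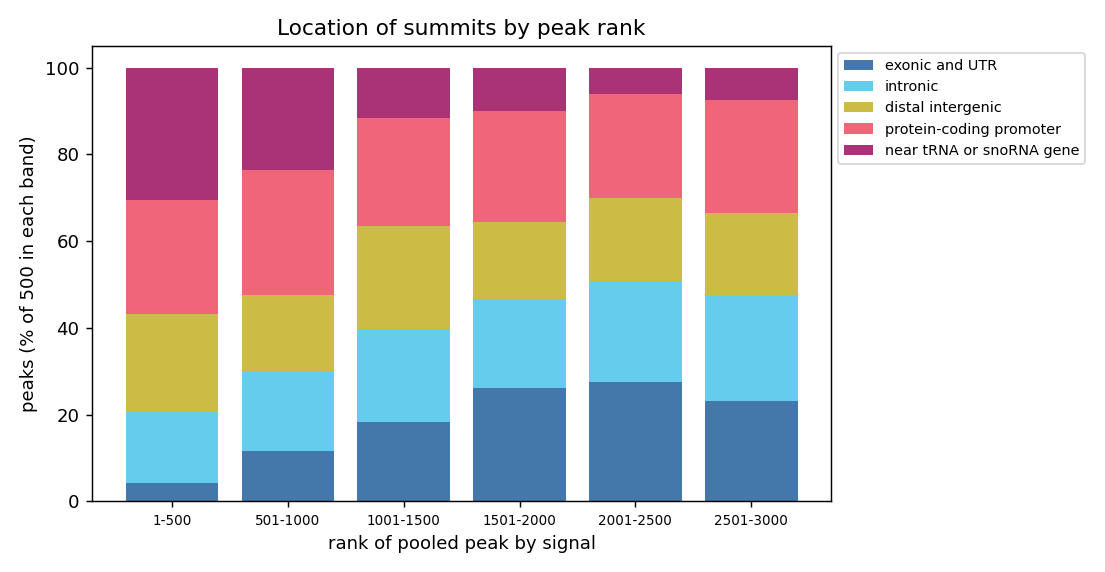
Location of peak summits by rank of the pooled peak (horizontal axis, 6 bands of 500 peaks), as the percentage of each band (vertical axis) in each class of location. Exonic peaks grew from 4.2% of the highest band to 27.6% of ranks 2001 to 2500, while peaks near tRNA or snoRNA genes fell from 30.6% to 7.4%.

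The exonic peaks at the edge of the ranked list show how close the limit is. The last one inside lay in mxl-3, a bHLH transcription factor gene (X:13350195-13350644), with a signal of 87.30 and rank 2997. The first one outside lay in C53B7.3 (X:6844975-6845424), with a signal of 87.26 and rank 3002.

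Each exonic peak was next looked up in the peak list of each replicate, taking the strongest replicate peak that overlaps it by at least 1 bp. In replicate 1, 375 exonic peaks (67.4%) overlapped one of the 3000 highest peaks, against 73.6% of all 3000 ranked peaks. In replicate 2 the number was 329 (59.2%), against 72% of all. The mean of the replicates was 63.3% ± 5.85 (SD, n = 2) for exonic peaks and 72.8% ± 1.13 (SD, n = 2) for all ranked peaks. In both replicates 192 exonic peaks (34.5%, interval 30.6 to 38.6) met this rule, against 52.3% of all ranked peaks, 46.1% of intronic and 55.3% of distal intergenic peaks. In neither replicate did 44 exonic peaks (7.91%) meet it, against 202 of all 3000 (6.73%). An overlapping peak of any rank was missing for 4 exonic peaks in replicate 1 and for 7 in replicate 2, and over all 3000 for 25 and 19.

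Signals of the exonic peaks in the replicates were hardly correlated. Across the 545 exonic peaks matched in both, Spearman's rho of the signal was −0.02 and Pearson's r of log2 signal was 0.12. Over all ranked peaks rho was 0.42 (n = 2956), over intronic peaks 0.38 (n = 614) and over distal intergenic peaks 0.43 (n = 596). These values describe peaks of the same 2 libraries and carry no p. The pooled list was made from both replicates, so the choice by pooled signal bears on them. Among exonic peaks on the reproducible list rho was 0.09 (n = 85), and among intronic and distal intergenic peaks on that list it was 0.56 (n = 184) and 0.50 (n = 210). Among peaks off that list rho was −0.40 for exonic (n = 460), −0.26 for intronic (n = 430) and −0.21 for distal intergenic peaks (n = 386). Off that list, 113 exonic peaks (24.1%) were among the 3000 highest of both replicates, beside 25.5% of intronic and 33.2% of distal intergenic peaks.

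**Figure D2:**
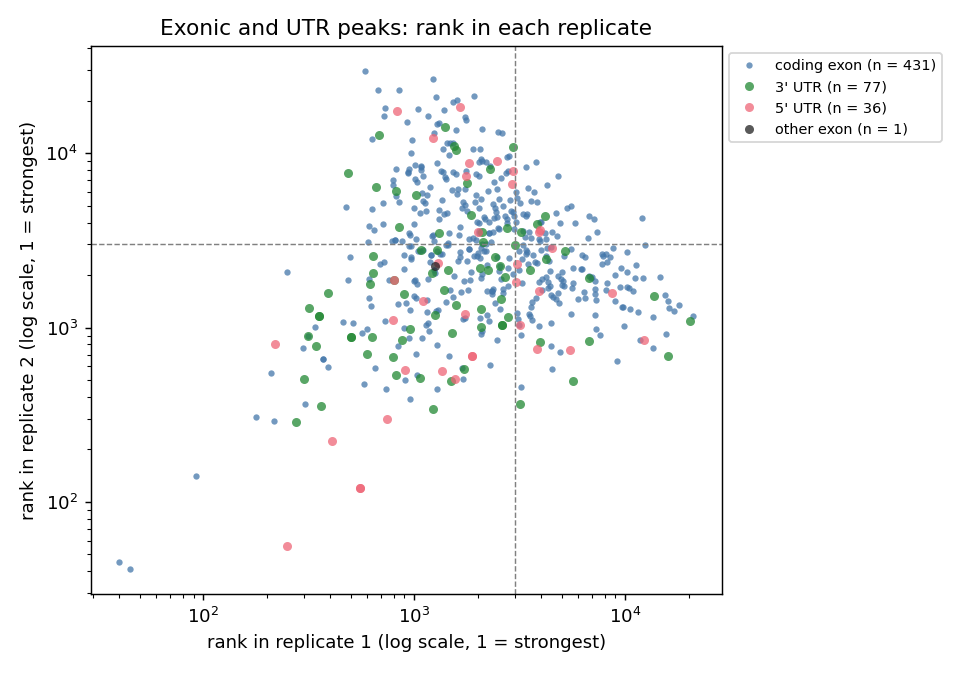
Rank of each exonic peak with an overlapping peak in both replicates (n = 545), in replicate 1 (horizontal axis) and replicate 2 (vertical axis), both on log scales with 1 as the strongest, by kind of exon; dashed lines mark rank 3000. Inside both lines lie 192 peaks, and rho of the signal over the plotted peaks was −0.02.

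Of the 15 exonic peaks with the highest pooled signal, 9 were coding, 4 in 5′ UTR and 2 in 3′ UTR, and 6 were on chromosome III. The first was a peak in the last of 11 exons of dos-3 (III:835803-836177), whose product is related to the Notch ligands Delta and OSM-11. Its signal was 357 (pooled rank 39), and it ranked 40 in replicate 1 and 45 in replicate 2. In pks-1, the polyketide synthase gene (X:5429312-5429761), the peak in exon 22 of 31 had a signal of 221 and ranked 178 in replicate 1 and 305 in replicate 2. The peak in ccd-5 (X:2569069-2569518) had a signal of 210.1 and ranked 217 and 292. None of these 3 peaks has another ranked summit within 500 bp.

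Other coding peaks with a high pooled signal had these values. The peak in C40H1.7 (III:9326503-9326952) had a signal of 198 and ranked 303 and 362 in replicates 1 and 2. It lies 118 bp upstream of the start of a shorter annotated transcript of the same gene. The peak in picd-1 (V:117269-117718), which encodes a protein with a CABIN1 domain, had a signal of 184 and ranked 298 and 767. The peak in F32D8.3 (V:10887477-10887926) had a signal of 180.3 and ranked 210 and 546. In elo-5 (IV:5374922-5375371) the signal was 175 and the ranks were 392 and 594. In ceh-60, a homeobox gene of the PBX type (X:6522693-6523142), the signal was 169, the rank in replicate 1 was 338, and the rank in replicate 2 was lower, outside the first 1000. All 5 ranked higher in replicate 1 than in replicate 2.

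Some exonic peaks sit on the side of a stronger peak. In 19 cases a stronger ranked summit lay within 500 bp, and the replicate rank then belongs to that neighbour where both overlap the same replicate peak. The peak in dhc-4, a dynein heavy chain gene (III:10989663-10990112, signal 215, pooled rank 237), lies 200 bp from an intronic summit of rank 43. Its replicate ranks of 45 and 41 are those of a replicate summit about as far away (199 bp and 200 bp). The peak in cdk-5, a cyclin-dependent kinase gene (III:13464801-13465250, signal 178, pooled rank 415), lies 200 bp from a stronger promoter summit, and its replicate ranks of 92 and 141 belong to summits 217 bp and 197 bp away. Over all exonic peaks, 379 had the summit of the strongest overlapping peak within 100 bp in both replicates. In all, 35 exonic peaks (6.29%) overlapped or adjoined another ranked peak, against 305 of the 3000 (10.2%).

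By the kind of exon sequence at the summit, 440 exonic peaks (79.1%, interval 75.5 to 82.4) were in coding sequence, which makes up 87.2% of eligible exon bases. A further 79 (14.2%, interval 11.4 to 17.4) were in 3′ UTR, on 10.2% of the bases, and 36 (6.47%, interval 4.58 to 8.85) were in 5′ UTR, on 2.43% of the bases. The remaining peak, in F25H5.8, was in an exon annotated as neither. Where transcripts differ, coding was given priority, which decided 16 peaks. Replicate support is given by kind of exon. Of the UTR peaks, 45 of the 3′ UTR peaks (56.96%) and 16 of the 5′ UTR peaks (44.4%) were among the 3000 highest of both replicates, against 130 coding peaks (29.5%). Over all 3000 ranked peaks this share was 52.3%. On the reproducible list were 24 of the 3′ UTR peaks (30.4%, interval 20.5 to 41.8), 10 of the 5′ UTR peaks (27.8%, interval 14.2 to 45.2) and 53 of the coding peaks (12.05%, interval 9.15 to 15.5). Over all 3000 ranked peaks it was 35.1%, above each of these shares. Membership of that list is set by the same pooled signal as the choice of peaks, so these shares are descriptions.

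Most 5′ UTR peaks lay near an annotated transcript start other than the outermost 5′ end of a gene. Masking every annotated transcript start takes out these same peaks, and 5′ UTR peaks were then 2.62% of exonic peaks. The rule removed windows around the outermost 5′ end of each gene. A 5′ UTR peak can thus be further along a long first exon or in a later exon that holds 5′ UTR. It can also belong to a transcript that starts inside the gene. Of the 36, 23 (63.9%, interval 46.2 to 79.2) had the summit between 1000 bp upstream and 200 bp downstream of an annotated transcript start, against 36 of the coding peaks (8.18%) and 1 of the 3′ UTR peaks. The share of eligible 5′ UTR bases in windows of this kind was not computed, so the high share is a description that the rule partly fixes. In all 60 exonic peaks in 56 genes lay in such a window (10.8%, interval 8.34 to 13.7), which holds 6.01% of eligible exon bases. Over all 3000 ranked peaks 37% lay in a window of this kind, promoter peaks included. Among the 60, 23 were among the 3000 highest of both replicates and 11 were on the reproducible list. The corresponding shares were 34.5% and 15.6% of all exonic peaks, and 52.3% and 35.1% of all 3000.

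The 5′ UTR peak with the highest signal was in Y43F8B.2, which encodes a protein with a GSKIP domain (V:19522625-19523074, signal 259, pooled rank 125). It ranked 251 in replicate 1 and 56 in replicate 2, and its summit lay 11 bp downstream of the start of 1 of the 6 annotated transcripts. In dmd-7, a DM-domain transcription factor gene (V:6247316-6247765, signal 213), the ranks were 557 and 120 and the summit was 610 bp downstream of the 5′ end of the gene. In T28F4.5 (I:7491877-7492326, signal 201) the ranks were 408 and 222, and in tent-5, of the poly(A) polymerase family (I:5379725-5380174, signal 179.5), they were 746 and 299. The tent-5 summit was 82 bp downstream of the start of a transcript that begins inside the gene. These 4 peaks ranked higher in replicate 2, unlike egl-30, the gene of the Gq alpha subunit (I:1836754-1837203, signal 173), with ranks of 218 and 803. The replicate 2 summit at egl-30 was more than 100 bp away and may be another site.

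The 3′ UTR peaks had their summits a median of 194 bp from the 3′ end of the host gene (quartiles 67.5 and 405 bp). They were 23.4% of the exonic peaks among the 1500 strongest pooled peaks. C05D11.8 had the highest signal of them (III:6421032-6421481, signal 208, pooled rank 265), with ranks of 275 and 287 in replicates 1 and 2. Next was cpg-1, which encodes a chondroitin proteoglycan of the eggshell (III:4491056-4491505, signal 193), with ranks of 361 and 355. In ncl-1, a TRIM-NHL gene that restrains nucleolar size (III:7737834-7738283, signal 173), the ranks were 341 and 782. In mef-2, a MADS-box transcription factor gene (I:9099949-9100398, signal 163), they were 319 and 1293. The first 2 had nearly equal ranks in both libraries, and the other 2 ranked higher in replicate 1. The median GC content around 3′ UTR summits was 36.8%, and that around coding summits was 45.3%.

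The exonic peaks fell in 505 genes, 2.53% of the 19973 nuclear protein-coding genes. Most of these genes held 1 peak. In 41 genes there were 2 or more, and in 5 genes there were 3 or more. The gene W06H8.6 held 5, all in its last exon, in 3′ UTR (V:6221418-6223685 from the first to the last), and all 5 summits also fell in the ncRNA gene W06H8.5. They had pooled ranks of 583, 976, 1338, 1367 and 1522. Their strongest overlapping replicate peaks were only 3 distinct peaks in each library, ranked 503, 353 and 2799 in replicate 1. Those in replicate 2 ranked 882, 1171 and 1156. The gene mnk-1, which encodes a kinase that acts on translation initiation factors, also held 5: 3 in 3′ UTR, 1 coding and 1 in 5′ UTR. The 3 in 3′ UTR all fell in a second ncRNA gene (WBGene00014492), and 1 of them (II:10542892-10543114, pooled rank 1043) overlapped no replicate 2 peak and the replicate 1 peak of rank 299.

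In unc-62, a Meis-type homeobox gene with 18 annotated transcripts, 3 peaks lay in 5′ UTR and 1 in coding sequence. The summits at V:4499456-4499905 and V:4499171-4499620 (pooled ranks 1089 and 1636) lay between annotated transcript starts inside the gene, the second 66 bp downstream of one, and shared the same replicate peaks, ranked 1878 and 685. The third, at V:4507896-4508345, had pooled rank 1783 and ranked 3055 and 1829. The coding peak at V:4510593-4511042 ranked 7251 in replicate 1 and 1433 in replicate 2. In vit-6, a vitellogenin gene, 2 of its 3 coding peaks shared replicate peaks ranked 1201 and 2603, and the other (IV:8265134-8265583) ranked 3255 and 1807. In tps-2, which encodes trehalose-phosphate synthase, none of 3 coding peaks was among the 3000 highest of both replicates. Peaks that share replicate peaks may not be separate sites, so counts of peaks per gene may overstate the number of sites. Only the strongest overlapping replicate peak was read, however. At the first 2 unc-62 peaks, the replicate 1 summit lay at the second and the replicate 2 summit at the first. The number of separate sites is therefore not settled here.

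Along the host gene, exonic peaks were more frequent toward the 3′ end. The last 20% of the gene length held 204 exonic peaks (36.7%, interval 32.7 to 40.8) and 27.8% of eligible exon bases. The stretch from 20% to 40% of the gene length held 71 (12.8%) on 18.7% of the bases. The first 20% held 10.1% of exonic peaks on 10.9% of the bases, the stretch from 40% to 60% held 18.7% on 20.8%, and that from 60% to 80% held 21.8% on 21.8%. Within 500 bp of the 3′ end lay 179 exonic peaks (32.2%, interval 28.3 to 36.3) on 23.3% of the bases. The last exon of any transcript held 191 (34.4%) and the first exon of any transcript 76 (13.7%). The shares of eligible exon bases in last and first exons were not computed, so these counts show no preference.

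**Figure D3:**
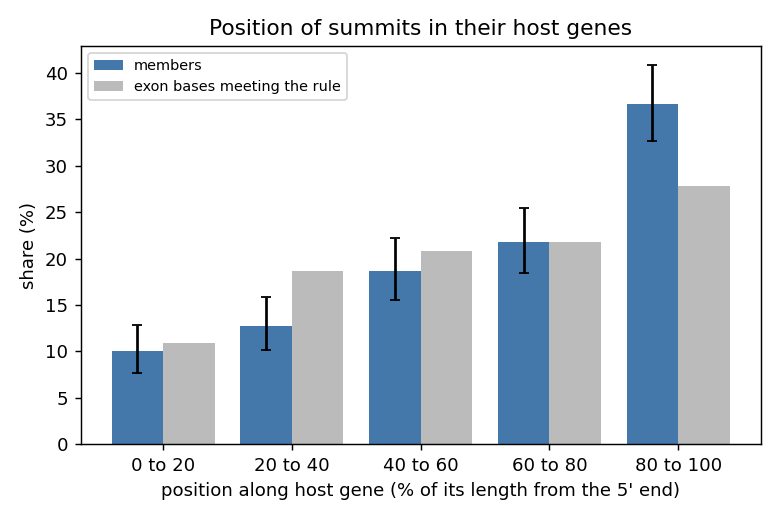
Position of exonic peak summits along their host genes, in steps of 20% of gene length from the 5′ end (horizontal axis), as a share in percent (vertical axis) of exonic peaks and of the exon bases that met the same rule; bars on the exonic peaks are 95% exact intervals. The last 20% held 36.7% of exonic peaks and 27.8% of the bases.

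The peaks are wider than many exons. Of the 556, 553 are 450 bp wide, and 162 (29.1%) lay wholly in exon sequence, with a median of 84.6% of the peak in exons. In 171 (30.8%) the summit was within 50 bp of an exon edge. Exons of at least 450 bp held 280 exonic peaks (50.4%), and such exons make up 36.5% of eligible exon bases. In 43 (7.73%) less than 50% of the peak was exon sequence. The closeness to exon edges and the exon content of such windows were not computed for eligible exon bases.

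Exonic peaks were in GC-rich exon sequence. In the 201 bp around each summit the median GC content was 44.3% (quartiles 39.3 and 49.3), against 38.8% around eligible exon bases (34.8 and 43.3). The number of exonic peaks per Mb of eligible exon was 9.76 where GC content was under 35%, 14.8 from 35% to 40%, 24.7 from 40% to 45%, 47.5 from 45% to 50%, and 96.97 at 50% and over. These bands held 57, 105, 142, 131 and 121 exonic peaks. The rise was present in the 192 strong in both replicates (3.77 to 28.0 per Mb) and in those on the reproducible list (1.71 to 11.2). It was also present in introns (3.92 to 222) and in distal intergenic DNA (5.47 to 191), where the median GC content at summits was 43.3% and 42.3%. The part of GC content in the calling of these peaks was not tested.

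**Figure D4:**
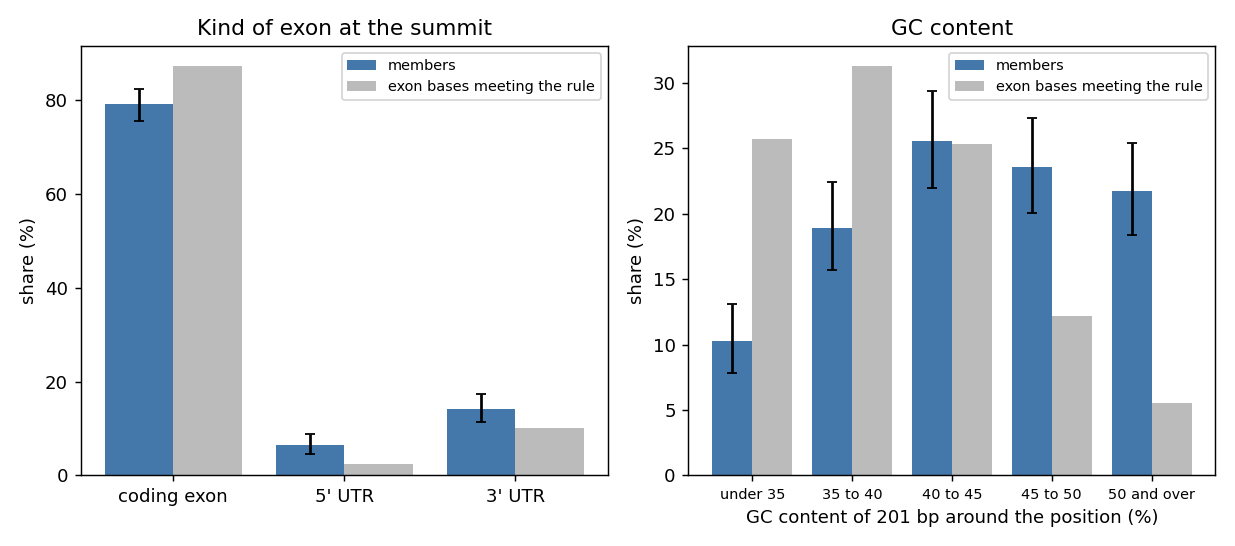
Left, kind of exon sequence at the summit, and right, GC content of the 201 bp around the position (horizontal axes), each as a share in percent (vertical axes) of exonic peaks and of the exon bases that met the same rule; bars on the exonic peaks are 95% exact intervals. Sequence of 50% GC and over held 21.8% of exonic peaks and 5.50% of the bases.

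The functions of the 505 host genes were read with 16 gene lists, with shares taken of all genes listed. Of all 19973 nuclear protein-coding genes 2.53% hosted an exonic peak, and of the 18426 with at least 1 eligible exon base 2.74%. Many ribosomal protein and histone genes lacked an eligible base, so their shares of eligible genes are given as well. No list was tested, since the lists were chosen with results of these data in view. The shares ran from no host among 74 translation factors and tRNA synthetases to 3 of 24 basement membrane and matrix genes (12.5%, interval 2.66 to 32.4). Most lists gave 5 hosts or fewer. The shares are per gene and were not adjusted for the length of eligible exon, and values per base are given below for collagens only. The list with the most hosts was that of cuticle collagens, with 17 of 176 (9.66%, interval 5.73 to 15.01).

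Cuticle collagens, the structural proteins of the worm's outer coat, are made in pulses before each molt. Their 17 host genes held 18 exonic peaks, all in coding sequence, among them col-129, col-140, sqt-3, dpy-3, bli-6 and col-19. The peak in col-129 (IV:12109133-12109582) had a signal of 141 and ranked 766 in the pooled list, 624 in replicate 1 and 1338 in replicate 2. In col-140 the pooled rank was 870 and the replicate ranks were 3205, with the summit more than 100 bp away, and 458. Of the 18, 9 were among the 3000 highest of replicate 1, 10 of replicate 2 and 4 of both, and 2 were on the reproducible list. Their median GC content was 58.2% (37.8 to 67.7). Collagen genes hold 0.629% of eligible exon bases and 3.24% of exonic peaks. In sequence of 50% GC and over, collagen exons held 17 peaks in 89107 bp, or 190.8 per Mb and other exons held 89.8 per Mb. Under 50% GC the values were 18.7 per Mb (1 peak) and 20.3 per Mb. The part of GC content in the collagen count was not tested.

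Of the intestinal and vitellogenin genes, 7 of 76 were hosts, with 10 exonic peaks. By overlap 5 of them were among the 3000 highest of both replicates, but these include a pair in vit-6 that shares its replicate peaks and the peak in fat-4, which lies beside a stronger intronic summit. They were ifc-2 (an intermediate filament of the gut), fat-1 and fat-4 (fatty acid desaturases), asp-3 (an aspartic protease), act-5 (an actin of the microvilli), vit-2 and vit-6. The peak in ifc-2 (X:643682-644131) had a signal of 125 and ranked 1002 in replicate 1 and 1853 in replicate 2. The replicate 2 summit of that peak was more than 100 bp away. The fat-4 peak had pooled rank 1527 and lay 210 bp from the intronic summit of rank 620, so that its replicate ranks of 597 and 975 may be those of the neighbour. The peak in act-5 ranked 9856 and 1017. Among nuclear hormone receptors, the family to which NCoR and SMRT bind in vertebrates, 10 of 274 were hosts (3.65%). The highest signal was in the 5′ UTR of nhr-66 (IV:8229491-8229940, signal 116.4), 139 bp upstream of a transcript start inside the gene, with ranks of 1303 and 2356. Of the 10 peaks, 3 were among the 3000 highest of both replicates.

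Of chaperones, 4 of 59 were hosts, and 3 of their 4 peaks were strong in both replicates. The peak in hsp-90 (V:14687140-14687589) had a signal of 145 and ranked 1030 and 534. Muscle structural genes gave 4 hosts of 41, led by unc-89, a giant protein of the M-line (I:4075687-4076136, signal 119.02, ranks 1258 and 2062). The basement membrane and matrix list gave 3 of 24: nas-39, let-805 and dig-1. Cytosolic ribosomal proteins gave 4 of 81, or 9.52% of the 42 with any eligible exon base. Among them rpl-11.1 had the highest signal (114, ranks 1479 and 1640, the latter for a summit more than 100 bp away). Synaptic genes gave 5 of 64, led by egl-30, and germline genes 3 of 67, led by cpg-1. Homeobox genes gave 3 of 90, led by ceh-60.

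Transcription factors outside these families gave 4 of 139. They included daf-16, the FOXO factor of insulin signalling, whose 3′ UTR peak (I:10776300-10776749) ranked 2578 and 1455. Chromatin regulators gave 4 of 55, led by lin-13, a zinc-finger gene that represses vulval cell fates, with ranks of 632 and 4778. The others were swsn-1, nurf-1 and gei-8 itself, which the transgene also carries. Of the 6 peaks in these genes 1 was among the 3000 highest of both replicates, and it lay in gei-8. The Notch list gave 2 of 23, led by osm-11 (ranks 785 and 3134; dos-3 was not on the list), and the heterochronic list gave 2 of 28: alg-1, an Argonaute gene, and puf-9. Histones gave 1 of 60, hil-5 (ranks 3074 and 1217), or 6.67% of the 15 with an eligible base.

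The gei-8 gene itself, which the transgene also carries, lies at III:8111168-8121232. Within 25000 bp of it were 9 ranked peaks, 3 of them exonic. In gei-8 the peak at III:8111754-8112203 (signal 118.9) ranked 1297 and 1267 in replicates 1 and 2, and that at III:8114412-8114861 (signal 89.2) ranked 2490 and 13334. The strongest overlapping replicate 1 peak of the first has its summit more than 100 bp away and may be another site. The third exonic peak was in rpl-21, a ribosomal protein gene, with pooled rank 1885. It lay 381 bp from a stronger intergenic summit of rank 1502, and its overlapping replicate peaks ranked 948 and 875. Within the same distance of unc-119 (III:10902641-10908935) lay 1 ranked peak, in cut-6, with ranks of 4368 and 2399. Together 4 exonic peaks (0.719%) lay in these windows, which hold 0.136% of eligible exon bases, against 0.333% of all 3000 peaks. The strain carries extra copies of both genes, their number is unknown here, and their part in these counts was not tested.

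By chromosome, exonic peaks ranged from 19.4 per Mb of eligible exon on X to 33.1 per Mb on III, where 108 of them lay (19.4%, interval 16.2 to 22.96, on 14.4% of the bases). On X there were 71 (12.8%), against 20.5% of all 3000 ranked peaks and 16.2% of eligible exon bases. Of distal intergenic peaks 25.04% were on X, a difference of −12.3 percentage points (exonic minus other; two-sided Fisher's exact test, adjusted p = 5.3e-07). Of intronic peaks 16.6% were on X, a difference of −3.82 points that did not pass the test (Fisher's exact test, adjusted p = 0.113). All adjusted p-values here are Benjamini-Hochberg over 16 tests, with peaks as the unit: neighbouring peaks are not independent and all come from the same 2 libraries. The shares of intronic and distal intergenic bases on X were not computed. The tests on X therefore cannot separate a trait of the peaks from where the bases of each class lie.

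An RNA gene or pseudogene other than tRNA and snoRNA lay at the summit of 12 exonic peaks (2.16%), against 13.3% of all 3000, where the tRNA and snoRNA classes are included. The 12 were 10 in ncRNA genes, 1 in a piRNA gene and 1 in a pseudogene, and 8 of them were in W06H8.6 and mnk-1. The difference was −4.77 points from intronic peaks (6.92%, adjusted p = 0.000228, Fisher's exact test) and −9.86 points from distal intergenic peaks (12.02%, adjusted p = 1.5e-10, the same test). Among the 1500 strongest peaks the differences were −4.57 and −6.61 points, and neither passed the test. Among peaks strong in both replicates the first (−4.75 points) did not pass either. Of eligible exon bases 0.642% lie in such genes. The same share was not computed for intronic and distal intergenic bases. These tests therefore cannot separate a trait of the peaks from the annotation of each class. Another ranked summit lay within 2000 bp of 188 exonic peaks (33.8%, against 34% of all 3000). By Fisher's exact test the differences of −4.83 points from intronic peaks (38.6%, adjusted p = 0.130) and −3.08 points from distal intergenic peaks (36.9%, adjusted p = 0.315) did not pass. The first passed among the 1500 strongest peaks (−12.1 points), among the 6000 strongest (−5.59 points) with every transcript start masked (−7.92 points) and with the wider promoter window (−8.54 points), and also when replicate 1 was left out (−6.44 points).

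Of 5 short motifs searched on both strands within 100 bp of each summit, 3 were less frequent at exonic peaks than at the other peaks. None of the motifs contains another. GAGAGA, the GA repeat, occurred at 91 exonic peaks (16.4%, interval 13.4 to 19.7), against 29.3% of all 3000. The difference was −16.5 points from intronic peaks (32.9%, Fisher's exact test, adjusted p = 2.7e-10) and −20.5 points from distal intergenic peaks (36.9%, adjusted p = 4.5e-14). CACGTG, the E-box, occurred at 46 (8.27%), against 9.87% of all 3000. The difference was −6.06 points from intronic peaks (14.3%, Fisher's exact test, adjusted p = 0.00293) and −4.58 points from distal intergenic peaks (12.9%, adjusted p = 0.0259). Neither passed among the 1500 strongest peaks (−6.58 and −4.65 points) or among the 6000 strongest (−1.96 and −1.19 points). The second also did not pass when replicate 1 or replicate 2 was left out (−3.32 and −3.30 points) and among peaks strong in both (−6.64 points). TGATAA, which intestinal transcription factors of the ELT-2 family bind, occurred at 83 (14.9%), against 18.7% of all 3000. The difference was −5.201 points from intronic peaks (20.1%, Fisher's exact test, adjusted p = 0.0384) and −10.3 points from distal intergenic peaks (25.2%, adjusted p = 4.6e-05). The first did not pass among the 1500 strongest peaks (−5.23 points), with every transcript start masked (−2.81 points), without replicate 2 (−3.97 points) or among peaks strong in both replicates (−3.1 points).

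Compared with the exons themselves, the order changed. Windows of the same width around eligible exon bases held GAGAGA in 10.6% and CACGTG in 4.50% of cases, both below the exonic peaks, and TGATAA in 18.3%, above them. Such windows were not counted for intronic and distal intergenic bases. The motif tests therefore cannot separate a trait of the peaks from the sequence of each class. GC content was higher at the summits than around eligible exon bases (44.3% against 38.8%), and its part in these differences was not tested. AGGTCA, a nuclear receptor half-site, occurred at 21 exonic peaks (3.78%, against 5.77% of all 3000 and 4.22% of eligible exon windows) and GTTCNANNC, the B box of tRNA promoters, at 48 (8.63%, against 15.5% and 8.76%). By Fisher's exact test neither passed against intronic (5.80% and 6.12%, adjusted p = 0.165 and 0.155) or distal intergenic peaks (5.68% and 7.85%, adjusted p = 0.190 and 0.669). Among the 6000 strongest peaks both AGGTCA differences passed (−2.12 and −2.18 points), and among the 1500 strongest the differences from intronic peaks turned sign for AGGTCA (0.510 points) and for GTTCNANNC (−1.14 points). A few of the matched windows are shown with the motif in capitals, chosen after their values were seen.
hsp-90 with AGGTCA, V:14687388-14687417, plus strand: ccaagatcttgaAGGTCAtccgtaagaatc
col-140 with CACGTG, V:5836292-5836321, plus strand: ctcctggtggtcCACGTGgtcctggacgtc
arrd-6 with GAGAGA, II:11150040-11150069, plus strand: atgtttggcaatGAGAGAtgagtcaatgga

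**Figure D5:**
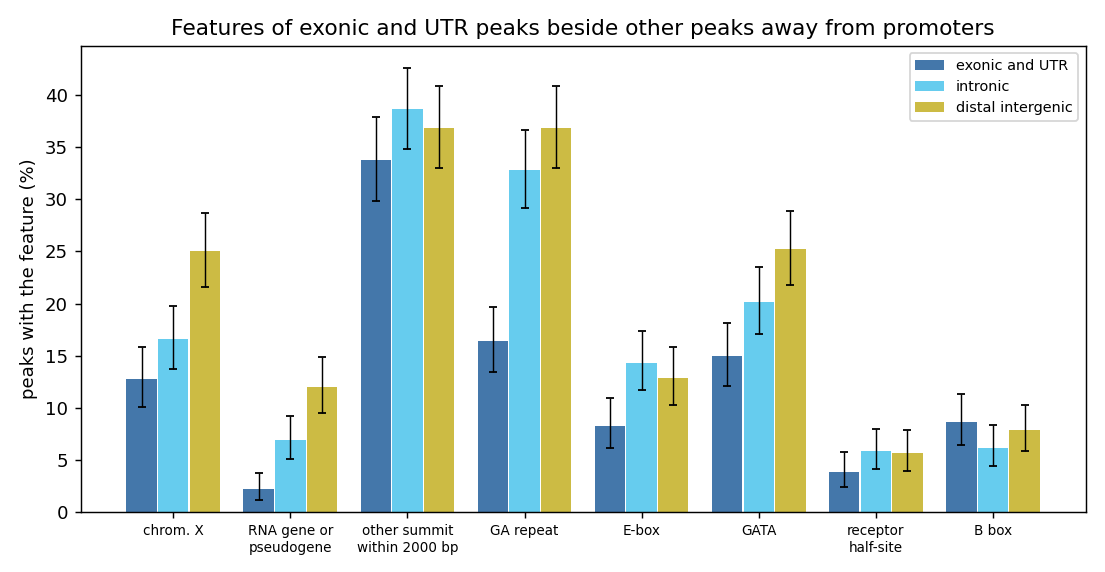
Share of exonic, intronic and distal intergenic peaks (vertical axis, percent, with 95% exact intervals) that have each feature on the horizontal axis: lying on X, an RNA gene at the summit, another ranked summit within 2000 bp, and each motif within 100 bp. GAGAGA was at 16.4% of exonic peaks and at 32.9% and 36.9% of intronic and distal intergenic peaks.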

How the data were processed

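The deposited files are peak lists of ChIP-seq on whole larvae, 30000 relaxed peaks for each of 2 replicates and for both pooled, and a shorter list of reproducible peaks after the authors' threshold, which equals the top of the pooled list. Each peak has a signal and a −log10 q-value as the authors' peak caller gave them, per the file headers and the texts deposited beside the files. The caller is not given in the sources used here, nor is the aligner. Coordinates are in ce11, which is WBcel235, and were counted from 1. Coverage tracks and control data were not used here. No library's depth is known. The 95% intervals are exact Clopper-Pearson intervals that cover the counting error of peaks only.

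Peaks were joined to Ensembl release 115. When a summit lay in exons of more than 1 gene, a gene with coding sequence there was the host, or otherwise the first by start coordinate. This concerned 4 peaks, among them that in ncl-1, whose summit also lies in an exon of WBGene00022661. Replicate support was read from the strongest replicate peak overlapping by at least 1 bp. Properties that the choice of peaks did not use were compared by Fisher's exact test, 16 tests with Benjamini-Hochberg adjustment and a threshold of 0.05. Named genes are the hosts of the 15 exonic peaks with the highest signal, of the 4 highest of each kind of exon, the 6 hosts with most peaks, the strongest peak of each list, gei-8, unc-119, and the peaks at the limit of rank 3000. Other genes were named after their values were seen. The members and the gene lists were chosen with earlier results of these data known. Alternatives changed the number of ranked peaks, the promoter window, the transgene loci, the RNA genes, the replicate used, the overlap rule and the motif window, and a further one kept only peaks strong in both replicates. That one, and the tests under the wider promoter window (2000 bp upstream to 500 bp downstream) and without more RNA genes, were chosen after seeing the data. The scripts were tested on simulated data. Scripts ran in Python 3.11.15 with pandas 2.3.3, scipy 1.17.1, numpy 2.4.6 and, for figures, matplotlib 3.10.9.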

Additional observations from a re-analysis of the deposited data

How the results depend on the processing

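No paired analysis was possible because the study has 1 group. Exonic peaks numbered 171 of the 1500 strongest pooled peaks (11.4%), 1502 of the 6000 strongest (25.03%) and 192 of those strong in both replicates (12.2%); the wider promoter window left 13.8%, and leaving out each replicate gave 17.7% to 22.5%. In those 3 sets coding peaks were 67.8%, 83.7% and 67.7%, and 5′ UTR peaks 8.19%, 3.86% and 8.33%; 3′ UTR peaks were 23.4% of the first and of the last. Peaks in 5′ UTR fell to 2.62% with every transcript start masked and were 6.02% with the wider window. Leaving out each replicate gave 5.08% to 5.64% in 5′ UTR and 13.8% to 17.7% in 3′ UTR. The shares overlapping the strongest peaks of replicates 1 and 2 were 90.1% and 87.1% for the 1500, 39.1% and 31.4% for the 6000, 23.9% and 16.9% with only as many replicate peaks as the reproducible list holds, 87.2% and 81.1% with 6000 of them, and 59.5% and 51.4% with summits within 100 bp.

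The lower shares on X and of GAGAGA against distal intergenic peaks, and of GAGAGA against intronic peaks, passed the test in every alternative run. The same shares of intronic and distal intergenic bases were not computed, so these tests cannot separate a trait of the peaks from the makeup of each class. With 1500 peaks the differences in RNA genes were −4.57 and −6.61 points (against intronic and distal intergenic peaks), in CACGTG −6.58 and −4.65, and in TGATAA −5.23 against intronic peaks, none past the threshold, while neighbouring summits passed it against intronic peaks (−12.1). With 6000 peaks CACGTG no longer passed (−1.96 and −1.19), while neighbouring summits against intronic peaks (−5.59) and AGGTCA (−2.12 and −2.18) did. With the wider promoter window neighbouring summits against intronic peaks passed (−8.54). With every transcript start masked, neighbouring summits against intronic peaks passed (−7.92) and TGATAA did not (−2.81). Among peaks strong in both replicates, RNA genes (−4.75) and TGATAA (−3.1) against intronic and CACGTG (−6.64) against distal intergenic peaks did not pass. Leaving out each replicate gave −6.44 to −5.41 for neighbouring summits against intronic peaks, and −5.41, without replicate 2, did not pass. The values were −7.49 to −3.97 for TGATAA against intronic peaks and −3.32 to −3.30 for CACGTG against distal intergenic peaks. Some differences that had not passed changed sign: AGGTCA against intronic peaks was 0.510 with 1500 peaks, 2.40 among peaks strong in both replicates and 0.771 to 1.15 without either replicate, and 0.000901 against distal intergenic peaks with a 50 bp motif window; GTTCNANNC was −1.14 against intronic peaks with 1500 peaks, and −1.44 against both among peaks strong in both replicates. The cause of these shifts was not tested.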
